A study of Mus musculus with 6 samples.

Results

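The nuclear-encoded genes of oxidative phosphorylation (OXPHOS) were taken from the gene count table by symbol: the Nduf genes of the a, b, c, s and v series that carry a number, the Cox4 to Cox8 genes, the Atp5 and Uqcr genes, the Sdh subunit genes Sdha, Sdhb, Sdhc and Sdhd, and Cyc1, without symbols containing -ps and without rows that the table types as pseudogenes. The rule matched 104 rows, of which 13 were dropped for a -ps symbol, and left 91 genes of the 49548 in the table. The rule reads symbols and gene types and no measured value. The genes encoded by the mitochondrial genome were not analysed here.

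Native cardiac fibroblasts (CFs), the non-cardiomyocyte fraction of the heart, were sequenced as mRNA from 3 WT and 3 CharmeKO samples. Both groups came from C57BL/6J mice aged 5 weeks, and the CharmeKO animals carry a polyA signal inserted into the gene of Charme, a long non-coding RNA of muscle. Hearts were enzymatically dissociated, red blood cells were lysed and cells of hematopoietic lineages were depleted with magnetic beads, with no positive selection for fibroblasts, so that other cells of the heart can be present. The labels also name a growth medium, although the samples are described as native cells.

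The respiratory chain sits in the inner mitochondrial membrane, where complexes I and II pass electrons to ubiquinone, complex III passes them on to cytochrome c and complex IV passes them to oxygen. Complexes I, III and IV pump protons while doing so, and complex V, the ATP synthase, uses the returning protons to make ATP. Most subunits are encoded in the nucleus and imported, cardiomyocytes are among the cells richest in them, and several complex IV subunits exist as a ubiquitous form and a form of heart and skeletal muscle.

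Total counts ranged from 9595701 to 42101393 in WT and from 23550718 to 31048606 in CharmeKO, and WT replicate 3 was the shallowest library. Charme itself was counted 26, 15 and 4 times in WT and 7, 0 and 0 times in CharmeKO. Levels are in CPM, the reads of a gene relative to a TMM-normalized library size, and differences as the log2 fold change of CharmeKO against WT, so that a positive value is higher in CharmeKO. A gene was tested when 2 or more of the 6 libraries gave it 10 or more counts, and was said to rise or fall when the Benjamini-Hochberg adjusted p of edgeR's quasi-likelihood test over all 15789 tested genes was under 0.05. The study's methods name hearts of 3 mice, but the labels do not tie libraries to animals, so p-values measure the spread between these samples.

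Nearly the whole group lay slightly higher in CharmeKO, with small differences for single genes. Of the 91 genes 84 were tested, and 78 of the 84 (92.9%) had a log2 fold change above 0, against 51.2% of all tested genes. The median log2 fold change was 0.22, a 1.17-fold difference, with a range from -0.12 to 0.92, against 0.0096 over all tested genes. A single gene, Uqcrq, rose past the threshold and 0 fell, where 0.83% of all tested genes passed it in either direction and 0.418% passed it as higher. At an unadjusted p under 0.05, 32 members were higher and 0 lower, against 5.9% of all tested genes higher and 6.87% lower. In 39 of the 84 all 3 CharmeKO libraries lay above all 3 WT libraries and in 0 all lay below, against 9.57% and 8.59% of all tested genes.

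Each CharmeKO library showed the same direction. Members lay above their own WT mean for 70, 66 and 83 of the 84 genes in CharmeKO replicates 1, 2 and 3, and for 42, 34 and 46 genes in the 3 WT libraries. The summed level of the 84 genes was 4691, 4664 and 4821 CPM in WT and 5269, 5317 and 5496 CPM in CharmeKO, with a mean of 4725 ± 84.0 (SD, n = 3) and 5361 ± 120 (SD, n = 3). The groups did not overlap, and the CharmeKO mean was 13.5% above the WT mean. The groups were also apart in the deposited counts without TMM normalization: these genes took 0.474%, 0.439% and 0.467% of all counts in WT and 0.561%, 0.552% and 0.538% in CharmeKO.

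**Figure D1:**
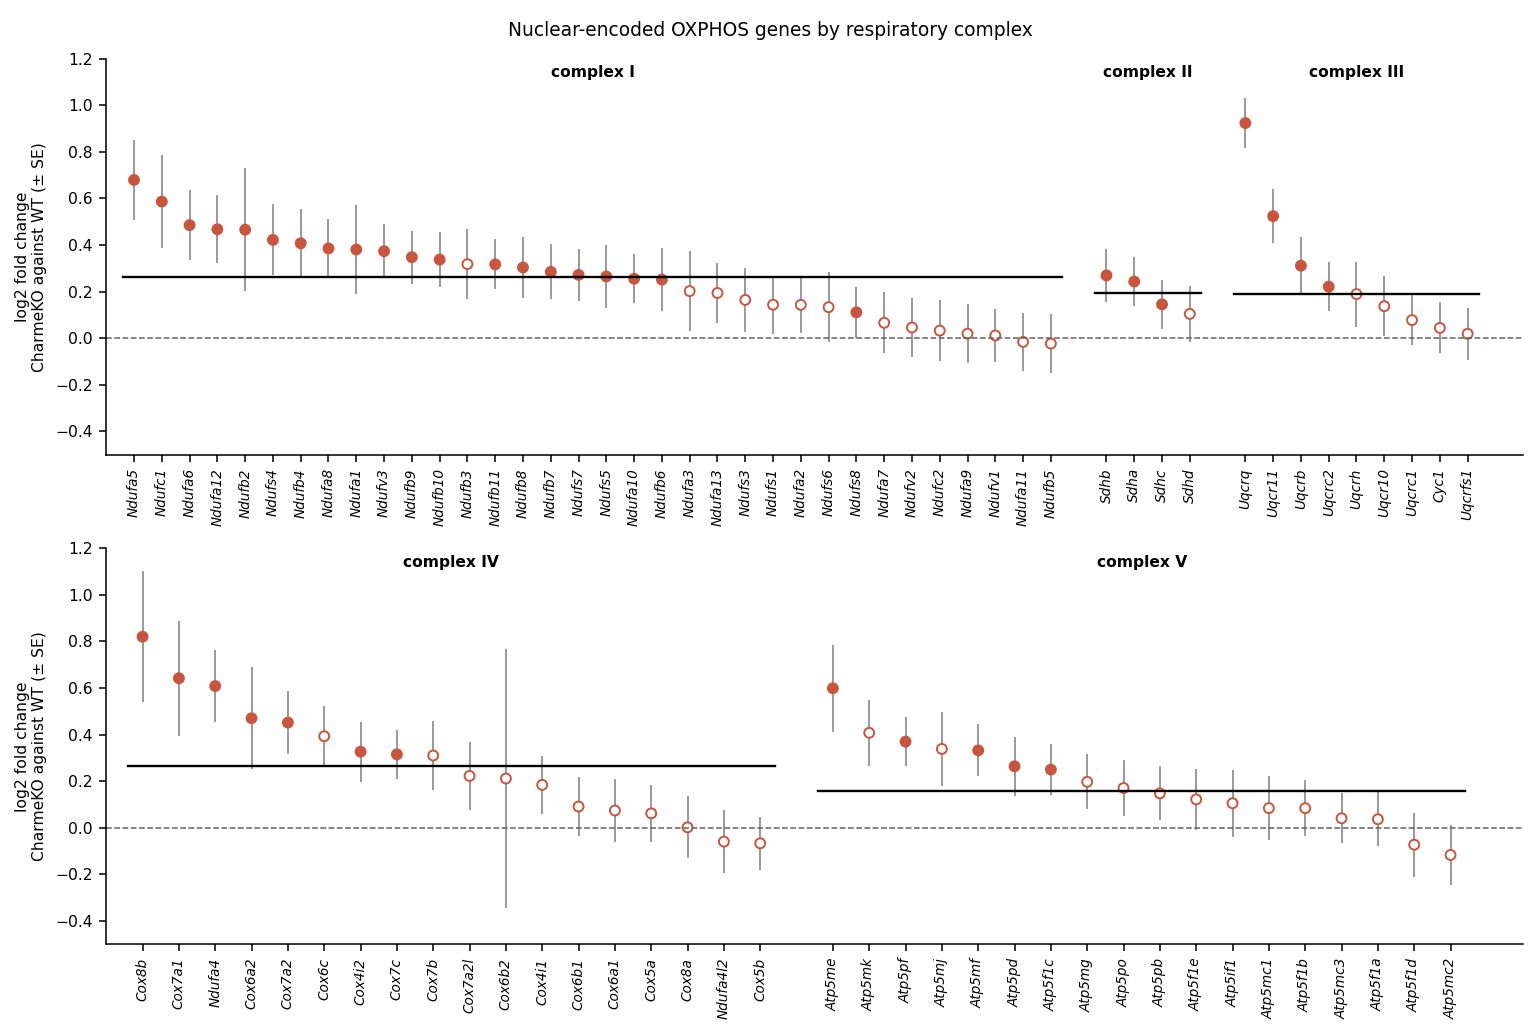
Log2 fold change of CharmeKO against WT (y axis, bars are ± SE) for 83 of the 84 tested OXPHOS genes, by complex, with a black line at the median of all tested members of the complex. Filled points are genes whose 3 CharmeKO libraries all lie above the 3 WT libraries, which holds for 39 genes, and Uqcrq in complex III stands highest.

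Complex I (NADH dehydrogenase) is the largest of the 5, with 35 tested members. Of these, 33 were above 0, 20 were higher in CharmeKO with no overlap between groups, 0 passed the threshold and the median log2 fold change was 0.26. The shares over all tested genes were 51.2% above 0, 9.57% higher without overlap and 0.83% past the threshold. The summed level was 1085, 1122 and 1097 CPM in WT and 1251, 1312 and 1311 CPM in CharmeKO. Complex II (succinate dehydrogenase), whose 4 subunits are all nuclear, had 4 of 4 members above 0 and a median of 0.19, with summed levels of 281, 271 and 258 CPM in WT against 320, 308 and 311 CPM in CharmeKO.

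Complex III (cytochrome bc1) had 9 of 9 members above 0, where 51.2% of all tested genes were above 0, and a median of 0.19. Its summed level was 549, 562 and 555 CPM in WT and 644, 661 and 662 CPM in CharmeKO, 18.1% between the means, and 12.4% without Uqcrq. For complex IV (cytochrome c oxidase) 16 of 18 members were above 0 with a median of 0.27, and sums were 955, 1018 and 1038 CPM in WT and 1134, 1142 and 1176 CPM in CharmeKO. Complex V stood closest to WT, with 16 of 18 members above 0, a median of 0.16 and sums of 1820, 1691 and 1873 CPM against 1919, 1893 and 2036 CPM. In every complex the lowest CharmeKO sum was above the highest WT sum, although for complex V the gap was small beside the spread within the groups. No difference between complexes was tested.

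**Figure D2:**
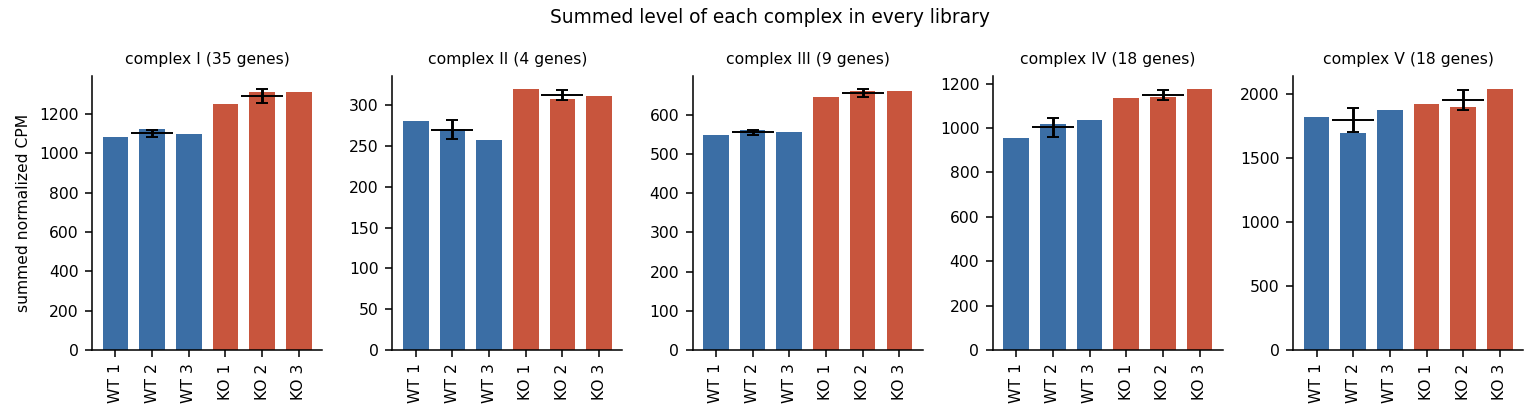
Summed normalized CPM (y axis, from 0) of the tested members of each complex in each of the 6 libraries, with the mean ± SD of each group (n = 3) drawn over its middle bar. CharmeKO bars stand above WT bars in all 5 panels, by 8.65% of the WT mean in complex V and by 18.1% in complex III (12.4% without Uqcrq).

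Uqcrq (ENSMUSG00000044894) encodes a small accessory subunit of complex III and lies on the minus strand of chromosome 11 at 53427922 to 53430831 (GRCm38, GENCODE annotation). Its level was 43.1, 39.3 and 38.0 CPM in WT and 77.4, 72.5 and 78.9 CPM in CharmeKO. The groups were widely separated, with each CharmeKO library far above each WT library. The log2 fold change was 0.92 ± 0.11 (SE), 1.90-fold, with an adjusted p of 0.00115 by edgeR's quasi-likelihood test. It passed the threshold in each of the 16 alternative analyses, including each of the 6 that left out 1 library, where its log2 fold change was between 0.89 and 0.98.

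By a rule on rank, the next members named are those without overlap between groups and with the lowest p. Uqcr11, the smallest subunit of complex III, was at 38.5, 44.9 and 44.4 CPM in WT and 58.8, 67.1 and 57.6 CPM in CharmeKO (log2 fold change 0.52 ± 0.12 SE, edgeR adjusted p = 0.0763). Its groups were apart by more than the spread within either, and it passed the threshold with DESeq2 (adjusted p = 0.016). Ndufa5, an accessory subunit of the matrix arm of complex I, was at 11.8, 10.5 and 14.5 CPM in WT and 18.2, 23.0 and 17.3 CPM in CharmeKO (0.68 ± 0.17, edgeR adjusted p = 0.126).

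Ndufa4, long assigned to complex I and now counted with complex IV, was at 42.0, 38.5 and 56.6 CPM in WT and 71.2, 77.2 and 59.2 CPM in CharmeKO (0.61 ± 0.16, edgeR adjusted p = 0.131). Here the highest WT library came close to the lowest CharmeKO library. Atp5pf, a part of the peripheral stalk of the ATP synthase, was at 89.2, 81.6 and 85.8 CPM in WT and 118, 105 and 109 CPM in CharmeKO (0.37 ± 0.11, edgeR adjusted p = 0.178). DESeq2 put 4 members past the threshold, Uqcrq, Uqcr11, Ndufa4 and Ndufa5, all higher, and 0 lower, where it called 2.5% of all tested genes, 0.975% higher and 1.52% lower.

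**Figure D3:**
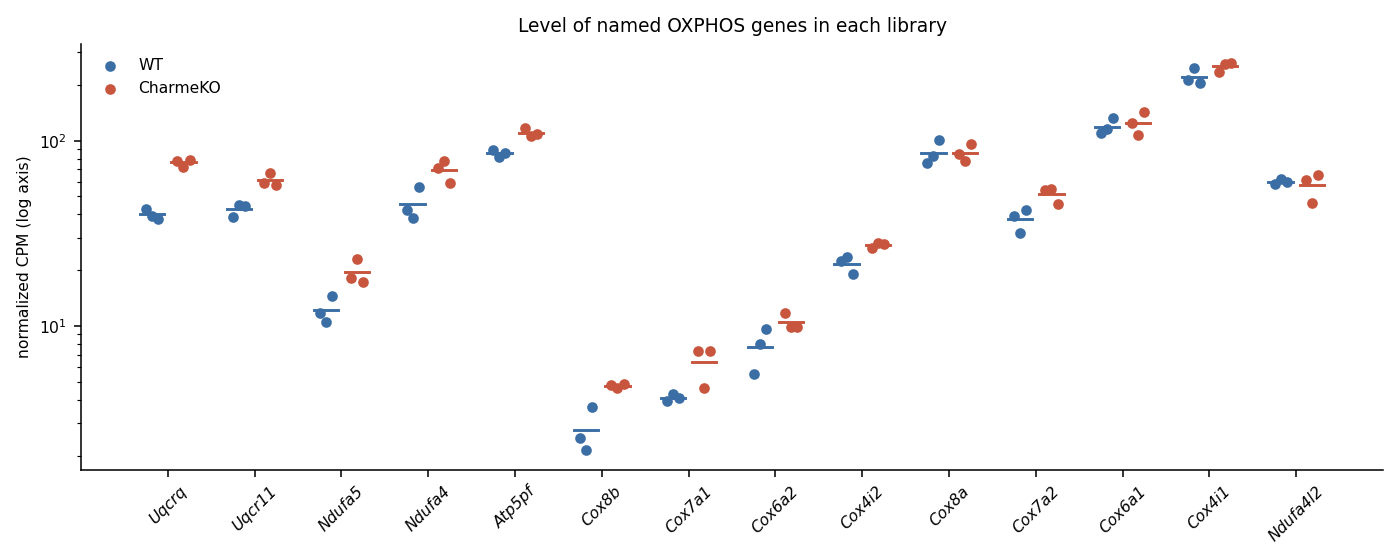
Normalized CPM (log axis) of named OXPHOS genes in each library, WT in blue and CharmeKO in red, with a line at the mean of each group (n = 3). Uqcrq is separated most widely, and Cox8b, Cox7a1 and Cox6a2 are higher in CharmeKO at low levels. Cox4i2 is higher in CharmeKO at a level above those muscle forms, and Cox8a and Cox6a1 overlap between groups.

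Promoter sequence was available for 69 of the 91 members, from RefSeq on GRCm38.p6, as 250 bases before to 50 after each gene's start. Nuclear respiratory factor 1 (NRF1) is a known activator of OXPHOS genes that binds a GC-rich palindrome, and 5 member promoters (7.25%) held its core, GCATGCGC with GC directly before it, against 0.977% of 27025 promoters of the same length. All motifs were read on both strands. The shorter form GCATGCGC, which every core contains, was in 10 (14.5%) against 2.80%. The ETS core CCGGAAGT, the kind of site used by GABP, was in 5 (7.25%) against 4%, the YY1 core AAGATGGC in 9 (13.0%) against 2.88%, and the TATA box letters TATAAA in 7 (10.1%) against 14.2%.

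The fold changes of members with and without these letters were compared as medians, with no test. The median log2 fold change was 0.23 for the 10 tested members with GCATGCGC and 0.22 for the 57 without it, while for the whole core it was 0.074 over 5 and 0.25 over 62 genes. For AAGATGGC the medians were 0.27 over 9 and 0.22 over 58 genes, for CCGGAAGT 0.19 over 5 and 0.23 over 62, and for TATAAA 0.24 over 6 and 0.22 over 61.

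The promoters of 3 members are shown as examples of the NRF1, ETS and TATA letters. Uqcr11 (chr10:80406772-80407071, minus strand) held CCGGAAGT and GCATGCGC, and Uqcrc1 (chr9:108936398-108936697, plus strand) held the whole NRF1 core just after the start. Cox8b (chr7:140900397-140900696, minus strand), a muscle form, held TATAAA, also just after the annotated start and not before it, and neither of the others. Capitals mark those letters in sequences written 5' to 3' along the gene.
Uqcr11 promoter: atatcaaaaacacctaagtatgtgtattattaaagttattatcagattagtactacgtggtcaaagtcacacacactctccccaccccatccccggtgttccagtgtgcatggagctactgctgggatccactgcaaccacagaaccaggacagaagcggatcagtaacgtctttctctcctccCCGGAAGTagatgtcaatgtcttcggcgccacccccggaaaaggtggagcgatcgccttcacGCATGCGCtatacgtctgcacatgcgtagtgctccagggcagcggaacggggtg
Uqcrc1 promoter: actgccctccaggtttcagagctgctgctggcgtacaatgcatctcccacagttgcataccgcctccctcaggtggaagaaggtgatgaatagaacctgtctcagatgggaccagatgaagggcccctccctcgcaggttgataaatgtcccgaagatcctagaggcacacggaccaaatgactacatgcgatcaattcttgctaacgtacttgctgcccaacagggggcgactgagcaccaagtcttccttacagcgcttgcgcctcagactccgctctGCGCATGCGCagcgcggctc
Cox8b promoter: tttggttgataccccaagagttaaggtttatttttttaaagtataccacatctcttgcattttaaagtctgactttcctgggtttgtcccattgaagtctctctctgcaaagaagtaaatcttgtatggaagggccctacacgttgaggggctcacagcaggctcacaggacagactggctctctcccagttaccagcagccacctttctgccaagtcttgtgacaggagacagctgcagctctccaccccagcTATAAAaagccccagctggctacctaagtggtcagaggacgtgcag
Log2 fold changes beside these sequences were 0.52 for Uqcr11, 0.078 for Uqcrc1 and 0.82 for Cox8b. Uqcr11 and Cox8b had the highest values among tested members with CCGGAAGT and with TATAAA, whose medians were 0.19 and 0.24. A match describes the letters in this window and is no evidence of binding.

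A list of 14 subunits, called core here, was counted apart from the other 70 members. Those others hold the accessory subunits and also some further subunits of the catalytic and membrane parts. The list includes Cox5a and Cox5b of complex IV and leaves out Ndufs3, Ndufs8 and Ndufv2 of complex I, so it is not a strict core set. Of the 14 genes, 13 were above 0, 3 had no overlap between groups, 0 passed the threshold and the median log2 fold change was 0.081. The other members had 65 of 70 above 0, 36 without overlap and a median of 0.26. All of these genes without overlap were higher in CharmeKO. Of all tested genes, 51.2% were above 0, 9.57% were higher without overlap and 0.83% passed the threshold. Core genes also have longer transcripts, with a median of 1638 bases against 681.5, and the difference between the 2 lists was not tested.

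Among core genes of complex I, Ndufs7, an iron-sulfur subunit, was at 36.9, 36.6 and 33.0 CPM in WT and 41.1, 43.9 and 44.0 CPM in CharmeKO (0.27 ± 0.11, edgeR adjusted p = 0.334). Its groups did not overlap. Ndufs1, which carries iron-sulfur clusters, had a log2 fold change of 0.14 ± 0.12, and Ndufv1, which binds NADH, had 0.012 ± 0.11. Both overlapped between groups.

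Both catalytic subunits of complex II lay higher without overlap. Sdha, the flavoprotein, was at 127, 128 and 123 CPM in WT and 154, 149 and 146 CPM in CharmeKO (0.24 ± 0.11, edgeR adjusted p = 0.37). Sdhb, the iron-sulfur subunit, was at 61.8, 51.2 and 49.6 CPM in WT and 66.4, 66.9 and 63.3 CPM in CharmeKO (0.27 ± 0.12, edgeR adjusted p = 0.362). Of the membrane anchors, Sdhd, the one with the lowest CPM, had 0.10 ± 0.12 and overlapped.

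The redox subunits of complex III, Cyc1 (cytochrome c1) and Uqcrfs1 (the Rieske protein), had log2 fold changes of 0.044 ± 0.11 and 0.019 ± 0.11, beside 0.92 for Uqcrq in the same complex. Uqcrc1, a core protein and the complex III member with the highest CPM, was at 141, 132 and 130 CPM in WT and 141, 143 and 142 CPM in CharmeKO (0.078 ± 0.11), and the groups overlapped. Uqcr10, the complex III member with the lowest CPM, had 0.14 ± 0.13. The complex IV subunits Cox5a and Cox5b had 0.062 ± 0.12 and -0.067 ± 0.11.

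The catalytic F1 subunits of the ATP synthase overlapped between groups. Atp5f1b, the beta subunit and the member with the highest CPM, was at 567, 530 and 593 CPM in WT and 590, 576 and 624 CPM in CharmeKO (0.084 ± 0.12). Atp5f1a, the alpha subunit, was at 336, 302 and 325 CPM in WT and 331, 319 and 337 CPM in CharmeKO (0.037 ± 0.12). Both genes of the membrane ring named here showed the same overlap: Atp5mc1 had a log2 fold change of 0.084 ± 0.14 and Atp5mc2 -0.12 ± 0.13, the lowest value of the 84. Atp5me, the complex V member with the lowest CPM and an accessory subunit, was at 10.8, 14.6 and 18.2 CPM in WT and 19.6, 24.1 and 21.3 CPM in CharmeKO (0.60 ± 0.19, edgeR adjusted p = 0.218), without overlap.

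The muscle forms of complex IV subunits were detected at low levels in both groups. Cox8b was at 2.49, 2.13 and 3.66 CPM in WT and 4.79, 4.62 and 4.84 CPM in CharmeKO (0.82 ± 0.28, edgeR adjusted p = 0.262). Cox7a1 was at 3.95, 4.30 and 4.09 CPM in WT and 7.30, 4.62 and 7.30 CPM in CharmeKO (0.64 ± 0.25, edgeR adjusted p = 0.308). Cox6a2 was at 5.53, 7.99 and 9.68 CPM in WT and 11.8, 9.82 and 9.93 CPM in CharmeKO (0.47 ± 0.22, edgeR adjusted p = 0.406). All 3 lay higher in CharmeKO without overlap, and none passed the threshold.

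Their ubiquitous partners did not share 1 pattern. Cox8a was at 75.4, 82.5 and 101 CPM in WT and 84.5, 78.0 and 95.7 CPM in CharmeKO (0.0018 ± 0.13), with full overlap. Cox6a1, with 0.074 ± 0.13, overlapped too. Cox7a2 was at 39.1, 31.7 and 42.5 CPM in WT and 53.9, 55.1 and 45.5 CPM in CharmeKO (0.45 ± 0.14, edgeR adjusted p = 0.199), without overlap, while the related Cox7a2l (0.22 ± 0.15) and Cox7b (0.31 ± 0.15) overlapped.

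A ratio of 2 paralogues within a library needs no normalization between libraries. The log2 ratio of Cox8b to Cox8a was -4.91, -5.26 and -4.76 in WT and -4.14, -4.07 and -4.30 in CharmeKO, a difference of 0.81. The groups did not overlap, which gave p = 0.1 in a two-sided exact permutation test, the smallest value that 3 against 3 libraries allow. The log2 ratio of Cox6a2 to Cox6a1 was 0.41 higher in CharmeKO (exact permutation p = 0.2) and that of Cox7a1 to Cox7a2 0.15 higher (exact permutation p = 0.8), with overlap in both.

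Cox4i2, the form of Cox4 known from lung and from oxygen-sensing cells, was at 22.4, 23.7 and 19.0 CPM in WT and 26.2, 28.1 and 27.7 CPM in CharmeKO (0.33 ± 0.13, edgeR adjusted p = 0.318). Cox4i1, its ubiquitous partner, was at 213, 247 and 204 CPM in WT and 234, 259 and 262 CPM in CharmeKO (0.18 ± 0.12), so that only Cox4i2 was without overlap. The log2 ratio of the pair was -3.25, -3.38 and -3.42 in WT and -3.16, -3.20 and -3.24 in CharmeKO, a difference of 0.15 without overlap (exact permutation p = 0.1).

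Ndufa4l2, a paralogue of Ndufa4 that is known to respond to hypoxia, was at 58.2, 62.1 and 59.8 CPM in WT and 61.4, 46.0 and 65.4 CPM in CharmeKO (-0.059 ± 0.14). The log2 ratio of Ndufa4l2 to Ndufa4 was 0.47, 0.69 and 0.080 in WT and -0.21, -0.75 and 0.14 in CharmeKO, a difference of -0.69 with overlap (exact permutation p = 0.2). The p-values of the 5 ratios adjusted together were 0.25 for 4 of them and 0.8 for Cox7a1 to Cox7a2. Cox6b1 (0.091 ± 0.13) and its testis form Cox6b2 (0.21 ± 0.56, at most 1.51 CPM in any library) overlapped between groups.

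Per kilobase of transcript, a scale on which genes can be compared, the highest WT levels were those of Cox4i1 (297 ± 30.2 CPM per kb, SD, n = 3) and Atp5f1b (294 ± 16.5 CPM per kb), which differed by less than their spread. Cox6a1 followed with 209 ± 21.1 and Cox8a with 157 ± 23.8 CPM per kb. The muscle forms stood far below, with 7.67 CPM per kb for Cox8b, 10.5 for Cox7a1 and 11.4 for Cox6a2. Cox6b2 was the lowest tested member.

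The 7 members below the count minimum had few or no reads. The table gives no gene type for Ndufb4c, which GENCODE lists as a processed pseudogene. Cox7b2, Cox8c and Ndufb11b had 0 counts in every library, and such a zero leaves room for up to 3 counts a library, or 0.0713 to 0.313 CPM. Ndufs6b had 3 counts in all, Ndufa11b 5, Cox6c2 8 and Ndufb4c 16 over the 6 libraries. The counts of the tested members are taken over genes that passed this minimum and are not counts over all 91.

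**Figure D4:**
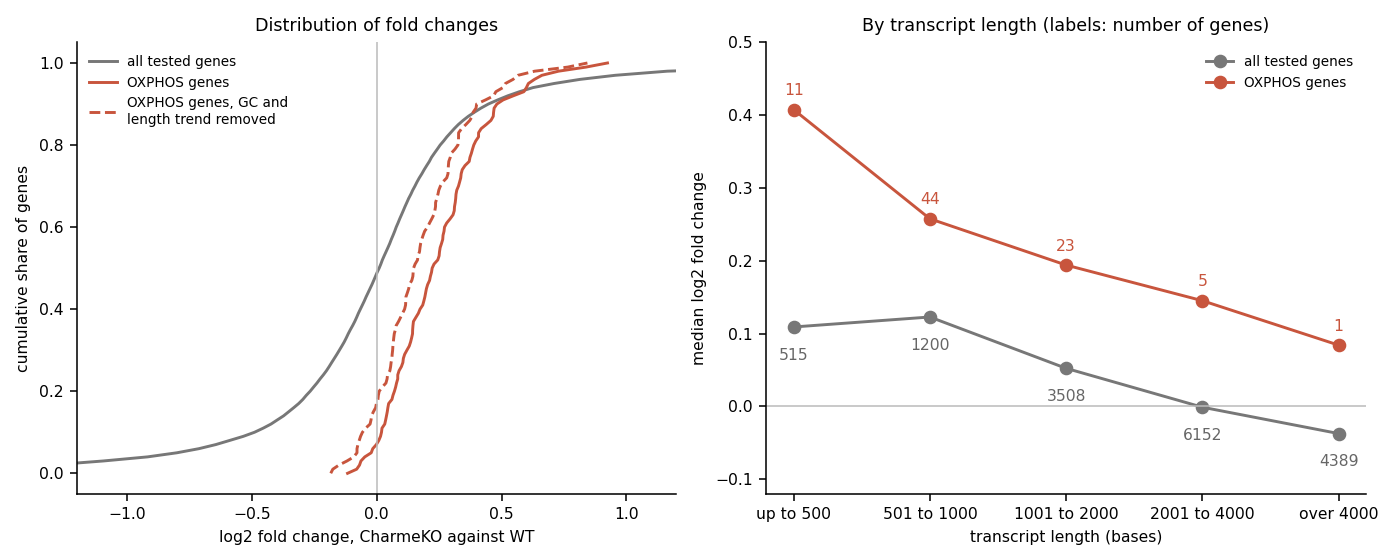
Left, cumulative share of genes (y axis) by log2 fold change of CharmeKO against WT (x axis, from -1.2 to 1.2, which leaves out the extremes of all genes) for all tested genes and for OXPHOS genes before and after the trend with GC content and transcript length was removed. Right, median log2 fold change by transcript length, where OXPHOS genes lie above all tested genes in each of the 5 length classes and both curves go down from the second class on.

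Transcript length moved with the difference. OXPHOS transcripts are short, with a median of 751.5 bases against 2741 for all tested genes, and short genes in general lay higher in CharmeKO: the median log2 fold change of all tested genes was 0.11 up to 500 bases, 0.12 from 501 to 1000, 0.052 from 1001 to 2000, -0.0010 from 2001 to 4000 and -0.037 above. Members lay above other genes of similar length, with medians of 0.41 over 11 genes, 0.26 over 44 and 0.19 over 23 in the first 3 classes. In the class from 501 to 1000 bases 40 of 44 members were above 0, against 64.0% of all tested genes of that length. After removal of the trend with GC content and length that each library had, the members' median was 0.15, 69 of 84 (82.1%) were above 0 against 53.6% of all tested genes, and Uqcrq remained past the threshold. The complex medians were then 0.23, 0.16, 0.13, 0.17 and 0.071 for complexes I to V.

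Cardiomyocyte markers also moved with the group. All 12 of 12 were above 0 and 3 rose past the threshold (Mb, Tnni3 and Myh6, for myoglobin, cardiac troponin I and the alpha myosin heavy chain). Over all tested genes 51.2% were above 0 and 0.418% rose. The summed level of the 12 markers was 558, 448 and 522 CPM in WT and 969, 774 and 639 CPM in CharmeKO. Of the defining markers none was at 0: Myh6 was at 56.3, 63.1 and 57.8 CPM in WT and 131, 105 and 82.1 CPM in CharmeKO. The order of libraries differed between the 2 lists, since CharmeKO replicate 3 had the lowest cardiomyocyte sum of the 3 and the highest OXPHOS sum. Relative to the WT mean, the median log2 deviation of CharmeKO replicates 1, 2 and 3 was 0.88, 0.54 and 0.25 for cardiomyocyte markers and 0.21, 0.24 and 0.25 for OXPHOS genes.

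Without CharmeKO replicate 1, the library with the most cardiomyocyte marker RNA, 78 of 84 members were above 0, against 50.6% of all tested genes. The median was then 0.26. At an unadjusted p under 0.05 by edgeR 23 were higher and 0 lower, against 8.61% of all tested genes in either direction. The remaining CharmeKO libraries, with marker sums of 774 and 639 CPM, still lay above the highest WT sum of 558 CPM. This comparison therefore keeps the marker difference and cannot separate it from the OXPHOS difference. Without CharmeKO replicate 2, 80 of 84 were above 0 with a median of 0.25, against 50.8% of all tested genes. Without CharmeKO replicate 3 they were 69 of 84 with 0.23, against 51.4% of all tested genes. With no library left out, 51.2% of all tested genes were above 0. Endothelial markers then had 5 of 6 above 0 and summed to between 6194 and 7228 CPM in WT and between 6817 and 8734 CPM in CharmeKO. Fibroblast markers, which mark the labelled cell type, had 3 of 7 above 0 with sums of 11115 to 13495 and 9285 to 11981 CPM. Dcn (0.29), Lum (0.32) and Tcf21 (0.15) were above 0, and Col1a1 (-0.77), Col1a2 (-0.54), Pdgfrb (-0.26) and Pdgfra (-0.049) below. The study reports lower collagen gene expression in CharmeKO CFs, so the fibroblast sum does not give the share of fibroblasts. Pericyte markers (2 of 6 above 0, sums of 1458 to 1898 and 1539 to 1695 CPM), leukocyte markers (3 of 5, 27.1 to 50.5 and 37.6 to 49.1 CPM) and erythroid markers (0 of 5, 26774 to 39207 and 24411 to 31742 CPM) overlapped between groups. The part of these cells in the OXPHOS difference was not tested, and in bulk RNA fewer cells of a type and less RNA per cell cannot be told apart.

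**Figure D5:**
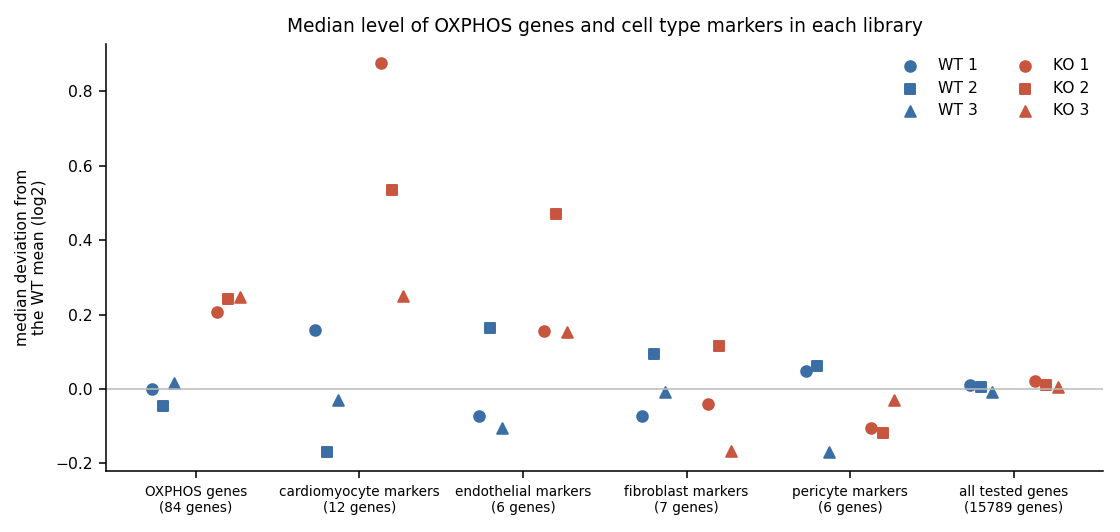
Median log2 deviation from the WT mean (y axis) of OXPHOS genes, of markers of 4 cell types and of all tested genes in each library, WT in blue and CharmeKO in red, with 1 symbol shape per replicate number. The 3 CharmeKO points lie close together at 0.21, 0.24 and 0.25 for OXPHOS genes and spread from 0.25 to 0.88 for cardiomyocyte markers.

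Genes that assemble, feed or regulate the chain were taken from a separate list of 87, of which 86 were tested. Of these, 59 were above 0, 27 below, 1 rose and 0 fell, and the median log2 fold change was 0.12, against 0.83% called and 51.2% above 0 over all tested genes. Assembly factors had 40 of 52 above 0 with a median of 0.14, carriers and electron donors 12 of 20 with 0.11, and transcriptional regulators of mitochondrial biogenesis 7 of 14 with 0.0011.

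Lyrm7, a chaperone that holds the Rieske protein before its insertion into complex III, was the gene that rose: 0.94, 1.45 and 0.43 CPM in WT and 5.10, 4.17 and 3.52 CPM in CharmeKO (2.09 ± 0.39, edgeR adjusted p = 0.0337). Its groups were far apart at a very low level, and the call was lost without any 1 of WT replicates 1 and 3 or the 3 CharmeKO libraries (edgeR adjusted p from 0.0571 to 0.211), and also once the GC and length trend was taken out (edgeR adjusted p = 0.0594). Ckmt2, the mitochondrial creatine kinase of striated muscle, was at 5.43, 5.82 and 5.81 CPM in WT and 10.3, 10.6 and 8.42 CPM in CharmeKO (0.79 ± 0.19, edgeR adjusted p = 0.104). Sdhaf1, which helps insert iron-sulfur clusters into complex II, had 0.61 ± 0.18 (edgeR adjusted p = 0.183), also without overlap.

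On the lower side, Pprc1, a coactivator of nuclear respiratory genes, was at 72.2, 59.9 and 74.0 CPM in WT and 55.2, 38.4 and 62.1 CPM in CharmeKO (-0.40 ± 0.17, edgeR adjusted p = 0.341), with overlap. Polrmt, the mitochondrial RNA polymerase, had -0.23 ± 0.14 without overlap (0.036 with the GC and length trend removed), and Ucp2, an inner membrane carrier, -0.19 ± 0.14 with overlap. None of the 3 passed the threshold.

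Some members share sequence with other loci, so their counts carry an uncertainty that the authors' counting could not remove. A near-identical copy, covering at least 50% of the coding sequence at 97% identity or more, exists for 16 tested members, of which 14 were above 0 with a median of 0.24, against 64 of 68 and 0.22 for members without a copy. Only some of the copies reached the count minimum and were tested. Of those, a single copy, Gm5436, passed the threshold, against 0.83% of all tested genes. Gm5436, a processed pseudogene of Atp5po, had 3, 12 and 1 counts in WT and 128, 52 and 104 in CharmeKO (3.92 ± 0.63, edgeR adjusted p = 0.0135). Atp5po itself overlapped between groups at 56.9, 47.6 and 57.8 CPM in WT and 62.2, 55.3 and 64.7 CPM in CharmeKO (0.17 ± 0.12). Ndufb2, the complex I member with the lowest CPM, shares exon bases on the same strand with another annotated gene, as do Ndufb8, Ndufb9, Atp5po and Atp5mc2, and it was at 3.60, 3.04 and 2.90 CPM in WT and 5.41, 3.97 and 3.91 CPM in CharmeKO (0.47 ± 0.27, edgeR adjusted p = 0.496).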

How the data were processed

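The deposited values are raw counts per gene, 1 column for each of 6 libraries. STAR was the authors' aligner, on a mouse assembly (the labels name GRCm39 and GRCh38), and it also counted reads per gene on an Ensembl annotation with Charme added, on the reverse strand of a directional poly(A) kit. DESeq2 was used for the authors' own tests. Tool versions are not given in the sources used here.

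From these counts, TMM normalization and the quasi-likelihood test of edgeR 4.0.16 (R 4.3.3) compared 3 CharmeKO with 3 WT libraries over the 15789 genes that reached 10 counts in 2 or more libraries. SEs were derived from its F statistics. Ratios used 0.5 added counts and two-sided exact permutation tests. Depth limits low genes: a count of 0 allows 3 counts, for counting error only. Alternatives were DESeq2 1.42.0, other size factors and filters, a replicate block, GC and length offsets, hemoglobin left out and each library left out, with total-count scaling chosen after seeing the data. Transcript lengths, overlaps and positions came from GENCODE mouse release 21 (GRCm38), copies from blastn 2.17.0 and promoters from RefSeq. Poly(A) selection, GC content and length can shift such values between libraries.

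The symbol rule uses no measured value, but the choice of this gene group and of the lists was made with earlier results of these data known. Genes named were those past the threshold, the 5 per direction with the lowest p among those without overlap, core subunits, paralogue pairs, level extremes of each complex and members below the minimum, and partners past the threshold or among the 3 lowest p per direction. Endothelial and other marker lists, motifs Gm5436, Atp5po and Atp5mc2 were not under that rule, and those 3 genes were chosen after their values were seen. The values of 1 tested member are not reported here, although it enters the counts, sums and medians.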

Additional observations from a re-analysis of the deposited data

How the results depend on the processing

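No member fell in any of the 16 alternatives by edgeR or DESeq2, and 0 were lower at an unadjusted p under 0.05 in any. Members called higher numbered 1, where 131 of 15789 tested genes passed in either direction. They were 4 with DESeq2 (394 of all genes), 7 of 88 without the filter beyond 1 count (699 of 24579), 2 with a replicate block (302), 2 with the replicate block and the GC and length trend removed (204) and 2 with total-count scaling (122), which was chosen after seeing the data. With 1 library left out they were 1 to 3, the 3 being Uqcrq, Ndufa6 and Uqcr11 without WT replicate 2, where 349 of 15522 genes passed (Ndufa6 was chosen after its values were seen). Calls over all genes thus moved with most of these settings too. The members' median was 0.15 with that trend removed, 0.15 with the block added, 0.30 with total-count scaling, where all tested genes had 0.087, and 0.21 to 0.26 with 1 library left out. Members above 0 ranged from 69 to 80 with 1 library left out.

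Partner calls were 1, and 2 with DESeq2 and 2 without the filter (Ckmt2 added), 0 with the GC and length trend removed, and 0 to 1 with 1 library left out (0 without WT replicate 1 or 3 or any CharmeKO library). The log2 ratio of Cox7a1 to Cox7a2 reversed to -0.045 without CharmeKO replicate 3 (-0.045 to 0.42 over left-out libraries).

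Values that turned sign stayed past no threshold. Cox8a became -0.0068 with DESeq2, -0.0068 with its size factors, -0.020 with the trend removed and -0.019 with the block added. With the trend removed, without and with the block, Uqcrfs1 became -0.079 and -0.086, Cox5a -0.068 and -0.067, Cox6b1 -0.022 and -0.024, and Polrmt 0.036 and 0.037. Total-count scaling gave 0.0057 for Cox5b and 0.016 for Ndufa4l2. Over left-out libraries the ranges were -0.086 to 0.12 for Cox8a, -0.043 to 0.061 for Uqcrfs1, -0.014 to 0.15 for Cox5a, -0.0078 to 0.073 for Atp5f1a, -0.064 to 0.059 for Ndufv1, -0.16 to 0.081 for Ndufa4l2, -0.032 to 0.17 for Cox6a1 and -0.26 to 0.50 for Cox6b2. The cause of these changes was not tested.

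Replicate numbers gave correlations of deviations of 0.18, 0.034 and 0.14 for same-numbered libraries, and of -0.20 to 0.036 for the other pairs. Each library but CharmeKO replicate 2 correlated best with its own number. The labels give no pairing beyond the number, and whether same-numbered samples were handled together was not tested. Depth limits genes near the floor of 0.0713 to 0.313 CPM.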
